A study of Mus musculus with 12 samples.

Results

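The genes described here encode the machinery that attaches chromosomes to the mitotic spindle, checks that attachment, separates the sister chromatids and compacts the chromosome arms. They are 47 genes chosen by symbol among the 14398 genes of a mouse read count table, and all 47 were in the table and passed the filter on low counts. By function they were placed in 11 sub-complexes: the CENP-A nucleosome and inner kinetochore (6 genes), the microtubule-binding outer kinetochore (5), the kinetochore corona (2), the spindle checkpoint (5), the chromosomal passenger complex (4), the shugoshins (2), anaphase promotion (4), condensin (7), mitotic kinases and spindle assembly (6), midzone and cytokinesis (4) and the mitotic chromosome (2). The table comes from messenger RNA of adipocyte precursor cells, the fibroblast-like progenitors of fat cells, taken from perigonadal (visceral, VWAT) and inguinal subcutaneous (SWAT) white fat. All mice were C57Bl6/J males aged 6 to 8 weeks with no genetic change named in the labels, and each library pooled the tissue of 3 mice. The sort kept cells negative for CD45 and CD31 and positive for CD29, CD34 and Sca1, whether or not they carried CD24. There were 4 groups of 3 libraries: VWAT_SD and SWAT_SD from mice on a standard diet (SD, labelled day 0), and VWAT_HFD and SWAT_HFD from mice given a high-fat diet with 60% lard (HFD) for 3 days, labelled day 3. If the standard-diet mice were collected when the others began the high-fat diet, day of collection and diet cannot be told apart. The labels do not say whether the 3 pools of a group came from separate cohorts, so the p-values measure the spread between these libraries.

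A kinetochore is built on each centromere, where nucleosomes hold the histone variant CENP-A. An inner layer of CENP proteins binds that chromatin, and an outer layer, the KMN network, grips microtubules. Unattached kinetochores feed the spindle checkpoint, whose Mad2 and BubR1 proteins hold back Cdc20, the activator of the anaphase promoting complex. Once Cdc20 is free, securin is destroyed and separase cuts the cohesin that joins the sister chromatids. Condensin complexes meanwhile fold the chromatid arms. Transcripts of many of these genes are low in resting cells and peak in G2 and mitosis, so in fat tissue, where most precursors rest, they are commonly used as markers of dividing precursors.

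The libraries held 17.6 M to 56.1 M counts in genes (M, 1e6), with SWAT_HFD replicate 1 the shallowest. No member had a count of 0, and member counts ran from 3, for Cenph in the SWAT_HFD group, to 5757. Levels are given as CPM, counts per 1e6 counts after TMM scaling, and a log2 change is the difference fitted by edgeR's quasi-likelihood test with its standard error (SE). A gene rose or fell where its p, adjusted by the Benjamini-Hochberg method over the 14266 genes tested, was under 0.05. All 8 markers of the sort and of mesenchymal cells were read in every library, at a summed 12100 to 16384 CPM. Markers of cells the sort should exclude were low beside these, but not all were low beside the members. Endothelial markers summed to 187.01 to 316.92 CPM over the libraries, and all members to 177.3 to 249.3 CPM on the standard diet. The values of each marker list stand with the results below.

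The high-fat diet was accompanied by higher levels of nearly all members in VWAT precursors. In that depot 45 of 47 rose and 0 fell, where 8.64% of all genes tested rose and 6.98% fell. The median member change was 2.78 on the log2 scale, beside -0.017 over all genes tested. Passing changes ran from 1.38-fold for the condensin subunit Ncapd3 to 12.8-fold for the checkpoint kinase Bub1, and 34 members rose at least 4-fold. All 3 VWAT_HFD libraries lay above all 3 VWAT_SD libraries for the same 45 members, which was so for 15.5% of all genes. The exceptions were Bub3, a checkpoint adaptor, and Pttg1, which encodes securin. In such bulk libraries a larger share of cells that express a gene and more RNA per cell cannot be told apart.

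In SWAT precursors the same direction was seen with smaller values and fewer calls. There 27 members rose and 0 fell, where 0.967% of all genes rose and 0.147% fell. The median member change was 2.05, beside -0.001 over all genes, and passing changes ran from 3.44-fold for Bub1b to 9.98-fold for Hmmr. All 3 SWAT_HFD libraries lay above all 3 SWAT_SD libraries for 44 members, against 11.6% of all genes; the overlaps were in Cenph, Bub3 and Pttg1. The 27 members that rose in SWAT all rose in VWAT too. The SWAT count depended on which libraries were used: it was 0 without any 1 of the SWAT_SD replicates or without SWAT_HFD replicate 2, and 8 and 7 without SWAT_HFD replicates 1 and 3. It was 13, 16 and 16 without VWAT_SD replicates 1, 2 and 3, which enter through the shared estimate of spread, and 41 without VWAT_HFD replicate 3. The median change stayed between 1.86 and 2.26 under these omissions. With all libraries kept, limma voom called 1 member in SWAT and DESeq2 called 37, so each SWAT call below is that of edgeR. Endothelial and leukocyte markers had SWAT medians of 1.0 and 1.25 with 0 passing, and their part in the members' change was not tested.

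**Figure D1:**
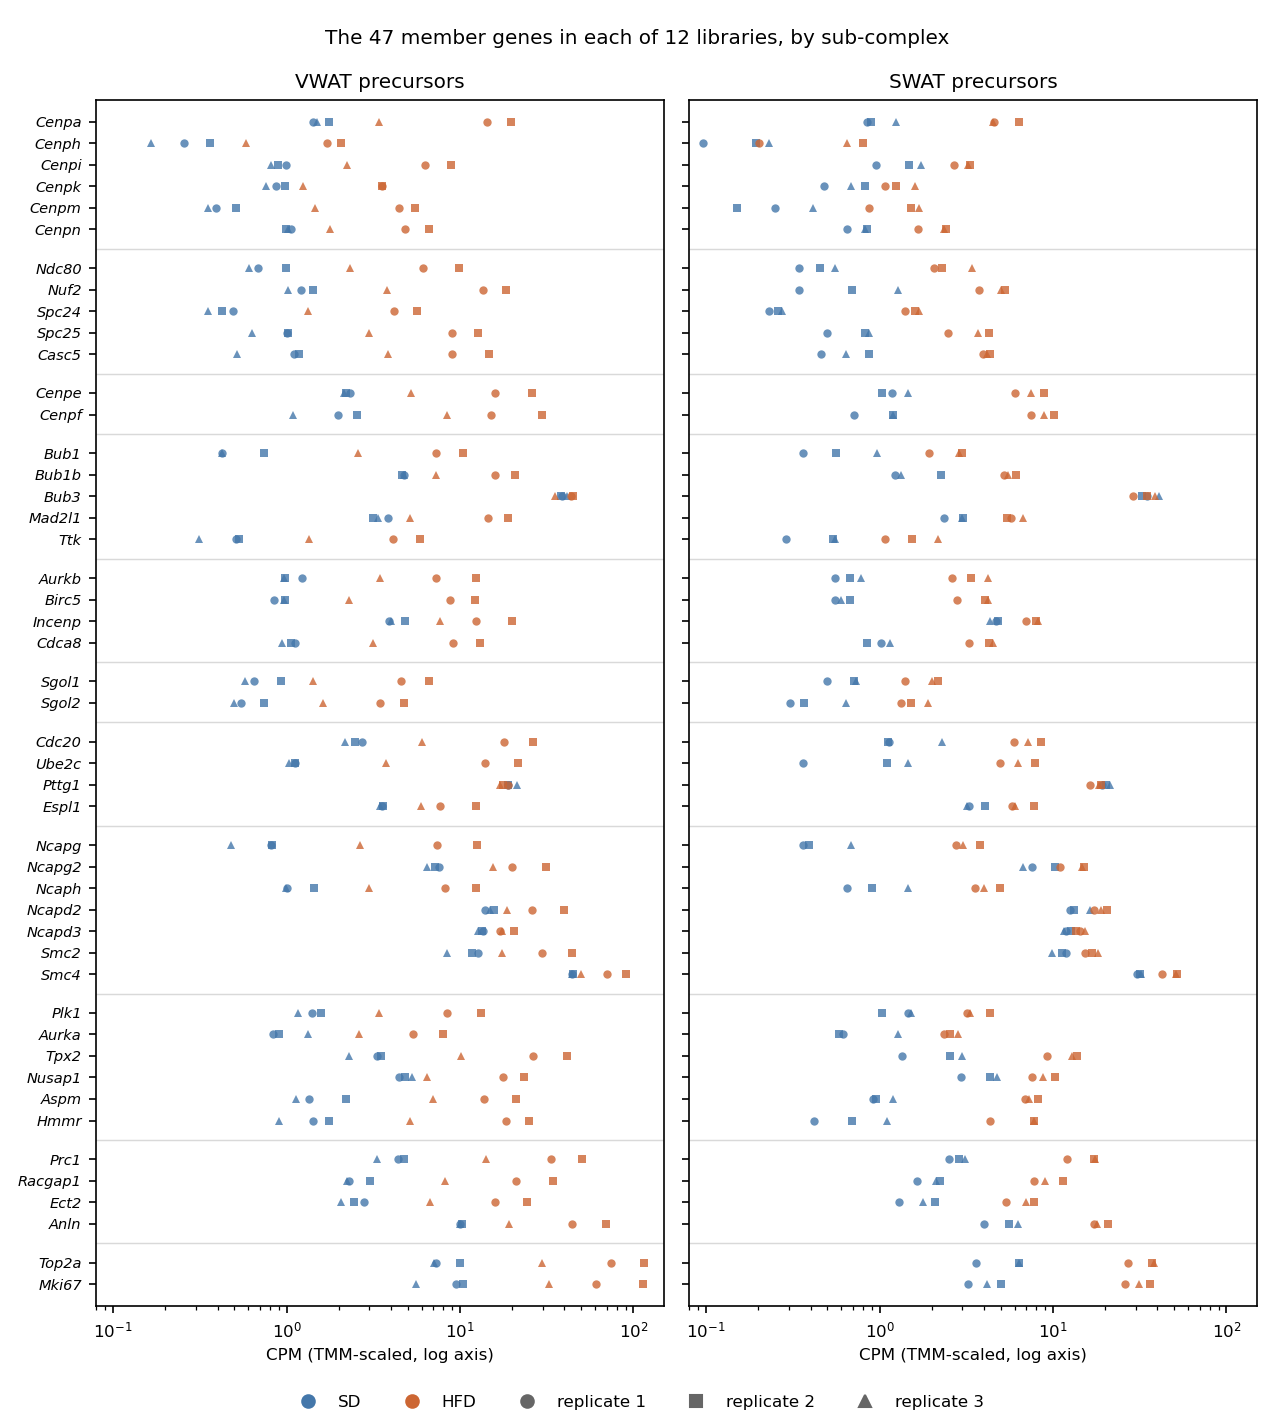
The 47 members in each of the 12 libraries, in TMM-scaled CPM on a log axis, with VWAT on the left and SWAT on the right; colours mark diet, symbols mark replicates, and lines part the sub-complexes. For 45 members in VWAT and 44 in SWAT every HFD point lies to the right of every SD point, while Bub3 and Pttg1 overlap in both depots.

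The members' promoters were searched for 3 short motifs on both strands, in RefSeq windows from 250 bases before to 50 after each start site (build GRCm38.p6). The motifs were TTTGAA, the core of the element known as the cell cycle genes homology region, CCAAT at least 2 times, and GCGGGAA, 1 form of an E2F site. RefSeq held 49 windows for 42 members and none for Spc24, Aurkb, Incenp, Smc4 and Tpx2. TTTGAA was present in 31 of the 49 windows (63.3%) and in 17.89% of all 32851 windows. At least 2 CCAAT matches stood in 20 windows (40.8%, beside 11.7% of all windows), and GCGGGAA in 7 (14.3%, beside 4.6%). Both TTTGAA and at least 2 CCAAT were found in 17 windows (34.7%), against 2.09% of all windows, and 12 windows (24.5%) held none of the 3 motifs, against 68.84% of all windows. Of the 37 TTTGAA matches in member windows, 28 lay within 50 bases of the start site. Ect2, Prc1 and Bub3 each have 2 overlapping windows, so their matches are counted in both and these are not all distinct sites. A match describes letters in a window and does not show a bound site. The members were listed as genes of mitosis, and no other set of such genes was searched. The shares therefore describe this class of genes and not the diet response.

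The last 100 bases before the start site are shown for 7 members. Of these, 5 rose in VWAT and hold TTTGAA there, and the other 2 passed in neither depot. Since all 5 hold the motif, this choice cannot relate it to the response. Bub1, with the largest VWAT change (log2 3.68), had 2 CCAAT matches and no TTTGAA match in its window. Each stretch shown is on the gene's own strand in build GRCm38.p6. Capitals mark TTTGAA or CCAAT, or their reverse complements TTCAAA and ATTGG. The intervals are chr2:164769829-164769928 (plus strand) for Ube2c, chr4:118437344-118437443 (minus) for Cdc20, chr11:99024190-99024289 (minus) for Top2a, chr5:45669825-45669924 (plus) for Ncapg, chr15:102296193-102296292 (plus) for Espl1, chr7:131560270-131560369 (plus) for Bub3 and chr11:43425982-43426081 (minus) for Pttg1.
Ube2c: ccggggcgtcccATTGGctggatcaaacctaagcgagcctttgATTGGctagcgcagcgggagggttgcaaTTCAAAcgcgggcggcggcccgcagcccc
Cdc20: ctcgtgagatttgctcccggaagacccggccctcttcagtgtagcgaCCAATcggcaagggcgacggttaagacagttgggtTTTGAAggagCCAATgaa
Top2a: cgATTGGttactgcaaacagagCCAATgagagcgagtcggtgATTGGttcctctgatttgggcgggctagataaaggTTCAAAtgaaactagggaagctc
Ncapg: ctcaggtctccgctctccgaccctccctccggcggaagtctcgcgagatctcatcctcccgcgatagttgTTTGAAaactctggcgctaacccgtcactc
Espl1: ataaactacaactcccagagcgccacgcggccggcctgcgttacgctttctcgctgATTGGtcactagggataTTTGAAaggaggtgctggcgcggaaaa
Bub3: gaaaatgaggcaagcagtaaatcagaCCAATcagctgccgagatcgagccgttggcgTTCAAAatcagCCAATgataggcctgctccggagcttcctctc
Pttg1: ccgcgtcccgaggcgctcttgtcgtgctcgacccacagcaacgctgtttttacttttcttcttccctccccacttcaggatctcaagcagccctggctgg
Bub3 did not pass in either depot, yet its stretch holds 1 TTTGAA match and 2 CCAAT matches, as the stretches of Ube2c and Cdc20 do. Pttg1 holds neither motif in its stretch. Among the 28 members with TTTGAA in a window the median log2 change in VWAT was 2.99, and among the other members with a window it was 2.62. The corresponding SWAT medians were 2.15 and 1.92.

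**Figure D2:**
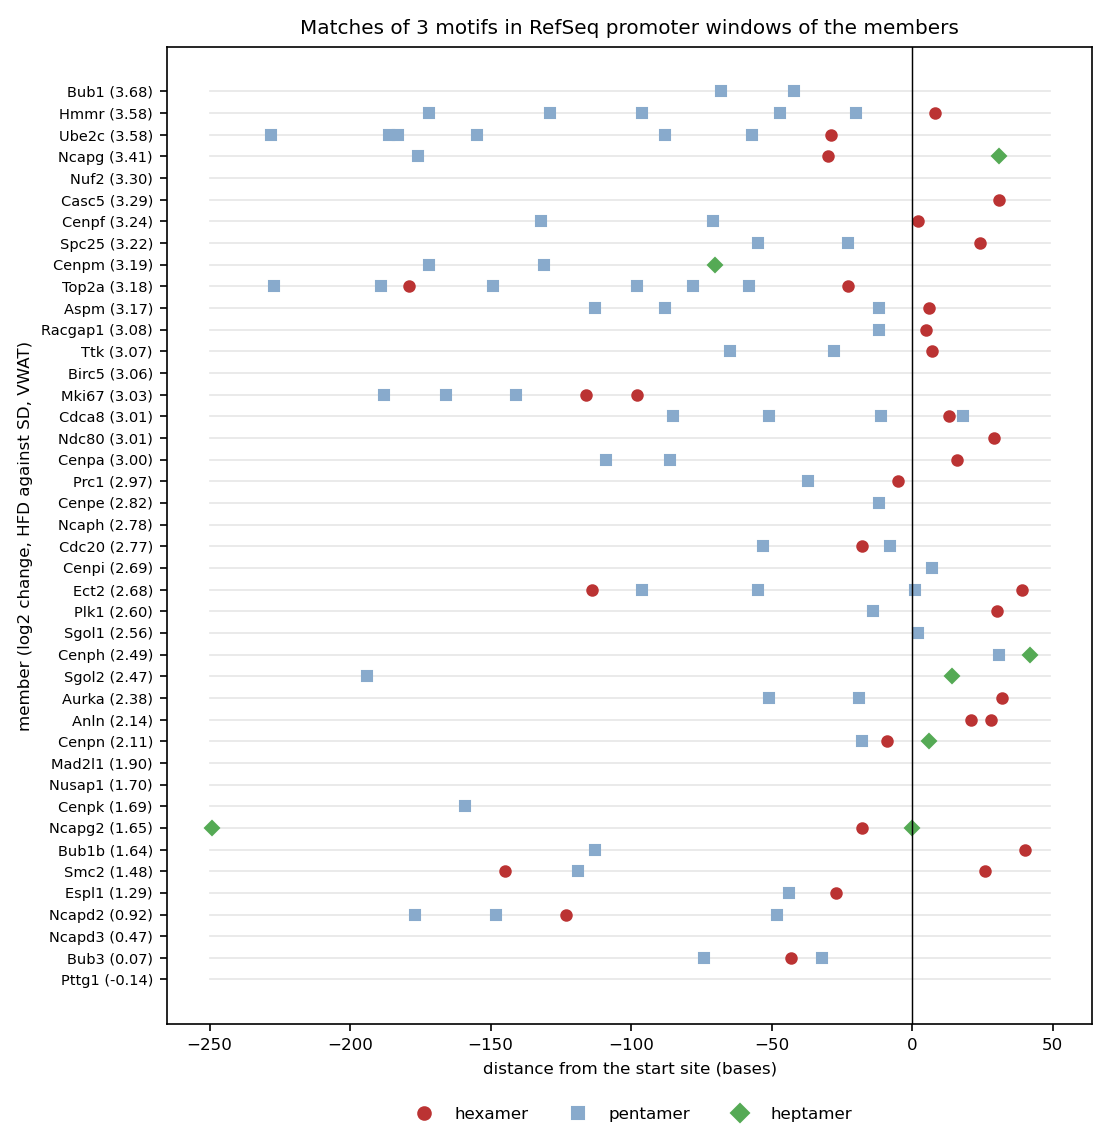
Positions of the 3 motifs, on either strand, in RefSeq promoter windows, by distance in bases from the start site (vertical line), with 1 window and 1 row for each of the 42 members that have any, ordered by log2 change in VWAT. The hexamer is the homology region core, the pentamer the CCAAT box and the heptamer the E2F form; most hexamer matches lie within 50 bases of the start, and members with no match occur from the top to the bottom of the order.

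All 6 inner kinetochore members rose in VWAT, with a median log2 change of 2.59. In SWAT 2 of 6 passed and the median was 1.69. Of 14 further inner kinetochore genes, no members, 6 rose in VWAT (median 0.53), so the rise did not cover the whole inner kinetochore. Cenpm, a subunit of the CENP-H/I/K/M assembly on centromeric chromatin, was at 0.391, 0.508 and 0.351 CPM in VWAT_SD and 4.43, 5.50 and 1.46 CPM in VWAT_HFD, a 9.13-fold rise (log2 3.19 ± 0.45 SE, adjusted p = 0.00105). In SWAT Cenpm rose from 0.249, 0.152 and 0.412 to 0.869, 1.52 and 1.69 CPM (log2 2.50 ± 0.53 SE, adjusted p = 0.0440). VWAT_HFD replicate 3 was the lowest of its group, though still above every VWAT_SD library, and the SWAT groups did not overlap. Cenpi, of the same assembly, stood at 0.986, 0.889 and 0.812 CPM in VWAT_SD and 6.32, 8.85 and 2.22 CPM in VWAT_HFD (log2 2.69 ± 0.40 SE, adjusted p = 0.00133). In SWAT Cenpi read 0.957, 1.47 and 1.74 against 2.68, 3.31 and 3.25 CPM (log2 1.20 ± 0.41 SE, adjusted p = 0.192). The SWAT groups did not overlap although the change did not pass, and Cenpi had the largest difference of diet change between depots of all members. Cenpk, also of that assembly, had the smallest VWAT change of the 6, from 0.867, 0.973 and 0.757 to 3.54, 3.57 and 1.25 CPM (log2 1.69 ± 0.35 SE, adjusted p = 0.00708), and in SWAT did not pass (log2 1.02 ± 0.39 SE, adjusted p = 0.247). The histone variant gene Cenpa itself rose 8.01-fold in VWAT and 5.39-fold in SWAT (adjusted p = 0.00162 and 0.0436). Cenph and Cenpn, whose product binds the CENP-A nucleosome, rose 5.62-fold and 4.31-fold in VWAT, and in SWAT neither passed (adjusted p = 0.179 and 0.0965).

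The 5 outer kinetochore members were the most even of the larger groups. All 5 members rose in both depots, with log2 changes between 3.01 and 3.30 in VWAT and between 2.32 and 2.77 in SWAT. This holds for the genes listed: of 13 further outer kinetochore genes 8 rose in VWAT (median 1.38) and 1 in SWAT. Casc5, the scaffold also called Knl1 that docks Bub proteins, went from 1.11, 1.18 and 0.517 to 8.93, 14.7 and 3.85 CPM in VWAT (log2 3.29 ± 0.43 SE, adjusted p = 0.000855). In SWAT Casc5 rose from 0.459, 0.866 and 0.642 to 3.95, 4.33 and 4.14 CPM (log2 2.66 ± 0.47 SE, adjusted p = 0.0245). The 3 SWAT_HFD libraries were close to each other for this gene, while the VWAT_HFD libraries differed several-fold. Spc24, which anchors the Ndc80 complex to the inner kinetochore, read 0.493, 0.423 and 0.351 CPM in VWAT_SD and 4.18, 5.62 and 1.33 CPM in VWAT_HFD (log2 3.13 ± 0.42 SE, adjusted p = 0.000927). In SWAT Spc24 moved from 0.230, 0.260 and 0.275 to 1.40, 1.61 and 1.69 CPM (log2 2.65 ± 0.49 SE, adjusted p = 0.0283). Neither depot had an overlap between diets. Ndc80, the microtubule-contacting subunit, had the smallest VWAT change of the 5, from 0.680, 0.994 and 0.609 to 6.10, 9.89 and 2.32 CPM (log2 3.01 ± 0.43 SE, adjusted p = 0.00123), and rose 6.09-fold in SWAT (adjusted p = 0.0306). Its partner Nuf2 rose 9.86-fold and 6.83-fold in VWAT and SWAT, and Spc25 9.29-fold and 5.01-fold.

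In the corona, the outermost fibrous layer, both members rose in both depots. Cenpf, a large coiled-coil protein of the corona, was at 1.97, 2.56 and 1.09 CPM in VWAT_SD and 15.03, 29.6 and 8.45 CPM in VWAT_HFD (log2 3.24 ± 0.41 SE, adjusted p = 0.000808). In SWAT Cenpf rose from 0.708, 1.19 and 1.19 to 7.49, 10.1 and 8.91 CPM (log2 3.15 ± 0.46 SE, adjusted p = 0.0189). The difference between the depots' changes was 0.09 ± 0.62 (SE). Cenpe, the kinesin that carries chromosomes towards the spindle equator, rose from 2.33, 2.20 and 2.14 to 15.96, 25.9 and 5.25 CPM in VWAT (log2 2.82 ± 0.41 SE, adjusted p = 0.00133) and 6.28-fold in SWAT (adjusted p = 0.0238).

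The checkpoint genes were the most uneven of the kinetochore groups: 4 of 5 rose in VWAT and 1 of 5 in SWAT, with changes in VWAT from 0.07 to 3.68. Bub1, the kinase that marks the centromere and recruits other checkpoint proteins, read 0.425, 0.741 and 0.425 CPM in VWAT_SD and 7.30, 10.3 and 2.58 CPM in VWAT_HFD (log2 3.68 ± 0.47 SE, adjusted p = 0.000828), the largest change of all members in that depot. In SWAT Bub1 stood at 0.363, 0.563 and 0.962 and 1.94, 2.97 and 2.87 CPM on the 2 diets (log2 2.19 ± 0.50 SE, adjusted p = 0.0565). The SWAT groups did not overlap, and the change fell just short of the threshold. Ttk, the Mps1 kinase that starts checkpoint signalling, rose from 0.510, 0.529 and 0.314 to 4.13, 5.90 and 1.36 CPM in VWAT (log2 3.07 ± 0.47 SE, adjusted p = 0.00162). In SWAT Ttk read 0.287, 0.541 and 0.550 against 1.07, 1.55 and 2.18 CPM and did not pass (log2 1.91 ± 0.52 SE, adjusted p = 0.105). Mad2l1, which encodes Mad2, rose 3.72-fold in VWAT (adjusted p = 0.00321) and did not pass in SWAT (2.18-fold, adjusted p = 0.164).

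Bub1b departed from the rest of the checkpoint group in its depot difference on the standard diet, and Bub3 in its diet change. Bub1b, which encodes BubR1, rose from 4.74, 4.61 and 4.78 to 15.9, 20.8 and 7.27 CPM in VWAT (log2 1.64 ± 0.30 SE, adjusted p = 0.00369). In SWAT Bub1b rose from 1.22, 2.27 and 1.33 to 5.22, 6.10 and 5.47 CPM (log2 1.78 ± 0.34 SE, adjusted p = 0.0314), and it was the sole member whose fitted change was larger there. The difference between the depots' changes was -0.14 ± 0.45 (SE) for Bub1b and did not pass. All VWAT_SD libraries already stood above all SWAT_SD libraries for this gene. Bub1b was called higher in VWAT than in SWAT on both diets (adjusted p = 0.00383 on SD and 0.00397 on HFD). Bub3, the adaptor that brings Bub1 and BubR1 to the kinetochore, was at 38.5, 38.4 and 41.1 CPM in VWAT_SD and 43.8, 44.5 and 35.2 CPM in VWAT_HFD (log2 0.07 ± 0.12 SE, adjusted p = 0.754). In SWAT Bub3 read 35.05, 32.4 and 40.7 and 28.8, 34.7 and 38.8 CPM (log2 -0.07 ± 0.13 SE, adjusted p = 0.856). The diets overlapped in both depots, and on the standard diet Bub3 was among the 3 members with the highest level per kilobase.

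In the chromosomal passenger complex, which corrects faulty attachments, the kinase and its small partners changed more than the scaffold. Aurkb, the kinase, rose from 1.22, 0.973 and 0.960 to 7.28, 12.3 and 3.44 CPM in VWAT (log2 2.86 ± 0.37 SE, adjusted p = 0.000855). In SWAT Aurkb rose from 0.555, 0.671 and 0.779 to 2.61, 3.37 and 4.24 CPM (log2 2.42 ± 0.42 SE, adjusted p = 0.0238). No HFD library overlapped an SD library in either depot. Cdca8, the borealin subunit, went from 1.12, 1.06 and 0.941 to 9.06, 13.02 and 3.14 CPM in VWAT (log2 3.01 ± 0.39 SE, adjusted p = 0.000855) and rose 4.14-fold in SWAT (adjusted p = 0.0384). Birc5, or survivin, rose 8.35-fold and 6.19-fold in the VWAT and SWAT comparisons. Incenp, the scaffold, read 3.89, 4.82 and 4.01 CPM in VWAT_SD and 12.4, 19.9 and 7.61 CPM in VWAT_HFD (log2 1.65 ± 0.25 SE, adjusted p = 0.00162). In SWAT Incenp was 4.67, 4.83 and 4.35 against 7.02, 7.98 and 8.20 CPM (log2 0.75 ± 0.26 SE, adjusted p = 0.209). It had the highest standard-diet level of the 4 and the smallest change in both depots, and it did not pass in SWAT.

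The shugoshins protect centromeric cohesin until anaphase. Sgol2, also called Sgo2a, rose from 0.544, 0.741 and 0.498 to 3.47, 4.76 and 1.61 CPM in VWAT (log2 2.47 ± 0.36 SE, adjusted p = 0.00133). In SWAT Sgol2 rose from 0.306, 0.368 and 0.642 to 1.34, 1.52 and 1.89 CPM (log2 1.98 ± 0.42 SE, adjusted p = 0.0436). Sgol1, also called Sgo1, rose from 0.646, 0.931 and 0.572 to 4.57, 6.62 and 1.42 CPM in VWAT (log2 2.56 ± 0.44 SE, adjusted p = 0.00263). This gene did not pass in SWAT, where it read 0.497, 0.715 and 0.733 against 1.40, 2.17 and 1.998 CPM (log2 1.58 ± 0.48 SE, adjusted p = 0.147).

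The anaphase group split between the activators, which rose, and securin, which did not. Ube2c, the ubiquitin-conjugating enzyme of the anaphase promoting complex, rose from 1.12, 1.12 and 1.03 to 13.9, 21.5 and 3.76 CPM in VWAT (log2 3.58 ± 0.53 SE, adjusted p = 0.00141). In SWAT Ube2c went from 0.363, 1.10 and 1.47 to 4.95, 7.86 and 6.24 CPM (log2 2.83 ± 0.57 SE, adjusted p = 0.0384). The activator Cdc20 rose from 2.74, 2.48 and 2.18 to 18.05, 26.3 and 6.07 CPM in VWAT (log2 2.77 ± 0.41 SE, adjusted p = 0.00141) and 5.14-fold in SWAT (adjusted p = 0.0321). For both genes VWAT_HFD replicate 3 was the lowest of its group and still above the standard-diet range. Pttg1, securin, was at 18.9, 18.96 and 21.4 CPM in VWAT_SD and 18.95, 17.7 and 17.1 CPM in VWAT_HFD (log2 -0.14 ± 0.09 SE, adjusted p = 0.2999). In SWAT Pttg1 read 19.2, 20.2 and 21.4 against 16.3, 19 and 18.4 CPM (log2 -0.17 ± 0.09 SE, adjusted p = 0.415). All 12 libraries lay within a narrow band, and the fitted value was below 0 in both depots without passing. Espl1, the separase that securin inhibits, rose 2.45-fold in VWAT (adjusted p = 0.00286) and did not pass in SWAT (1.86-fold, adjusted p = 0.0931).

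Condensin had the lowest median change of the 11 sub-complexes, 1.48 in VWAT and 0.63 in SWAT, and the members spread from 0.47 to 3.41 in VWAT. All 7 rose in VWAT and 2 of 7 in SWAT, Ncapg and Ncaph, both of condensin I. Ncapg, a HEAT-repeat subunit of condensin I, rose from 0.816, 0.825 and 0.480 to 7.36, 12.5 and 2.65 CPM in VWAT (log2 3.41 ± 0.46 SE, adjusted p = 0.000958). In SWAT Ncapg rose from 0.363, 0.390 and 0.687 to 2.74, 3.77 and 3.02 CPM (log2 2.84 ± 0.52 SE, adjusted p = 0.0277). Its change exceeded that of its condensin II counterpart in both depots. Ncapg2, that counterpart, went from 7.58, 7.21 and 6.42 to 19.9, 31.4 and 15.4 CPM in VWAT (log2 1.65 ± 0.23 SE, adjusted p = 0.00110). In SWAT Ncapg2 read 7.58, 10.3 and 6.69 against 10.97, 15.1 and 14.7 CPM (log2 0.73 ± 0.24 SE, adjusted p = 0.171). The SWAT diets did not overlap, but the change did not pass.

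The remaining condensin subunits ran in the order Ncaph, Smc2, Ncapd2, Smc4 and Ncapd3 in VWAT, and in SWAT in the order Ncaph, Smc4, Smc2, Ncapd2 and Ncapd3. Ncaph, the kleisin that closes the condensin I ring, rose 6.86-fold in VWAT and 4.41-fold in SWAT (adjusted p = 0.00148 and 0.0440). Ncapd2, the other HEAT-repeat subunit of condensin I, rose 1.90-fold in VWAT (adjusted p = 0.0101) and did not pass in SWAT (adjusted p = 0.345). Smc2, an ATPase shared by both complexes, rose 2.78-fold in VWAT (adjusted p = 0.00283) with an adjusted p of 0.303 in SWAT. The 3 condensin I subunits thus ranged from 0.92 to 3.41 on the log2 scale in VWAT. Smc4, the other shared ATPase, was at 44.01, 44.8 and 44.5 CPM in VWAT_SD and 70.7, 90.7 and 49.5 CPM in VWAT_HFD (log2 0.66 ± 0.16 SE, adjusted p = 0.0167). In SWAT Smc4 was 30.4, 31.5 and 32.1 against 42.3, 52.1 and 51.04 CPM (log2 0.63 ± 0.17 SE, adjusted p = 0.0914), and its change differed between depots by only 0.03 ± 0.23 (SE). Smc4 was the member whose VWAT call was lost in some settings: without any 1 VWAT_SD replicate, without VWAT_HFD replicate 2, and in a fit of the 6 VWAT libraries alone, with adjusted p up to 0.0874. Ncapd3, a condensin II subunit, rose least, from 13.6, 13.4 and 12.6 to 16.9, 20.5 and 17.4 CPM in VWAT (log2 0.47 ± 0.09 SE, adjusted p = 0.00619), and in SWAT it did not pass (log2 0.25 ± 0.10 SE, adjusted p = 0.254). Ncaph2, the condensin II kleisin and no member, read 47.03 ± 2.65 CPM in VWAT_SD and 53.99 ± 10.3 CPM in VWAT_HFD (SD, n = 3) and did not pass (log2 0.20 ± 0.13 SE, adjusted p = 0.304).

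**Figure D3:**
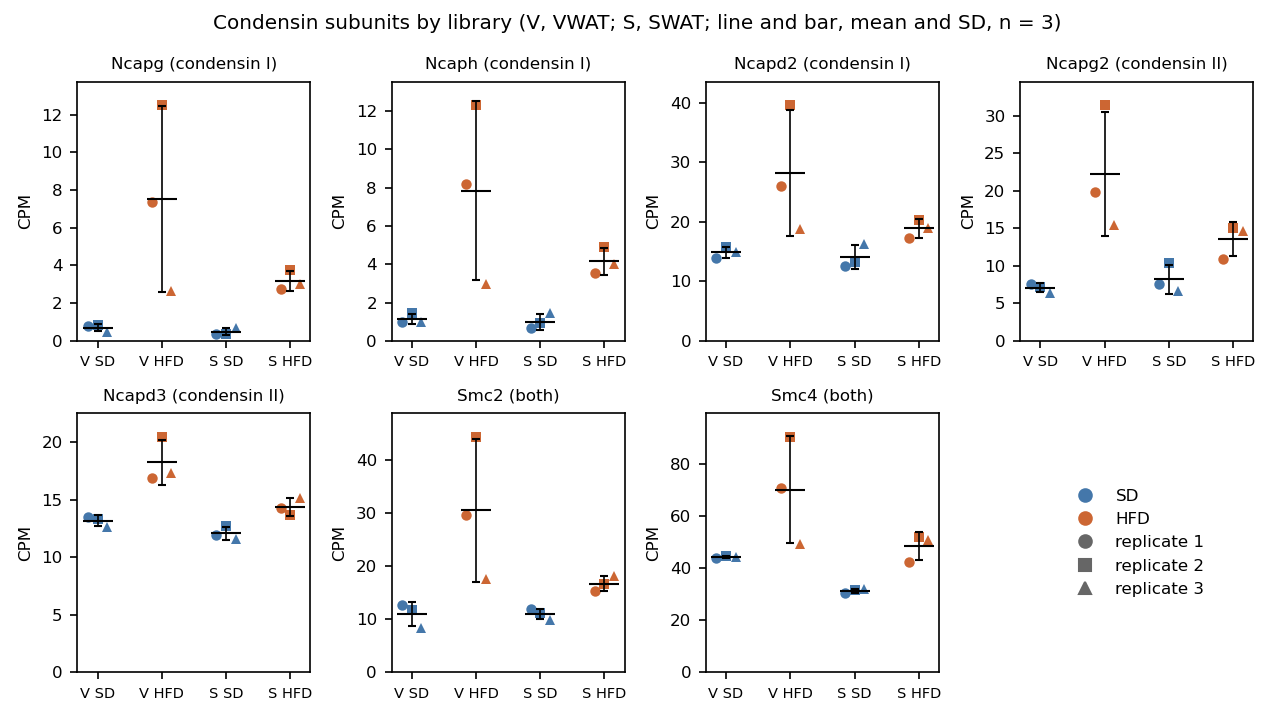
CPM of the 7 condensin members in each library, with the group mean and SD (n = 3) as line and bar; each panel has its own axis from 0. Ncapg and Ncaph lie at or below 1.47 CPM on SD and rise in both depots, while Smc4, Ncapd2 and Ncapd3 lie above 10 CPM on SD and rise by less than 2-fold in VWAT.

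All 6 genes of mitotic kinases and spindle assembly rose in VWAT (median 2.85), and 3 rose in SWAT: Aspm, Hmmr and Tpx2. Aspm, a spindle pole protein, had the lowest adjusted p of all members, with 1.34, 2.20 and 1.13 CPM in VWAT_SD and 13.7, 21.01 and 7.01 CPM in VWAT_HFD (log2 3.17 ± 0.34 SE, adjusted p = 0.000644). In SWAT Aspm rose from 0.918, 0.953 and 1.19 to 6.89, 8.17 and 7.26 CPM (log2 2.90 ± 0.38 SE, adjusted p = 0.0189). The SWAT_HFD libraries were nearly level with each other and all above the SWAT_SD range. Tpx2, which activates Aurora A and starts microtubules near chromosomes, rose from 3.30, 3.49 and 2.29 to 26.5, 41.6 and 10.1 CPM in VWAT (log2 3.11 ± 0.42 SE, adjusted p = 0.000958) and 5.46-fold in SWAT (adjusted p = 0.0276). Nusap1, a microtubule bundling protein, changed least of the 6, from 4.42, 4.85 and 5.28 to 17.6, 23.3 and 6.45 CPM in VWAT (log2 1.70 ± 0.34 SE, adjusted p = 0.00616), and did not pass in SWAT (log2 1.17 ± 0.36 SE, adjusted p = 0.149). The kinase genes Plk1 and Aurka rose 6.05-fold and 5.20-fold in VWAT, and neither passed in SWAT (adjusted p = 0.105 and 0.0629). Hmmr, a spindle protein that also binds hyaluronan, rose 11.98-fold in VWAT and had the largest SWAT change.

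The 4 midzone and cytokinesis genes rose in both depots, with medians of 2.83 and 2.12. Prc1, which bundles antiparallel microtubules at the midzone, rose from 4.39, 4.78 and 3.34 to 33.5, 50.4 and 14.1 CPM in VWAT (log2 2.97 ± 0.35 SE, adjusted p = 0.000793). In SWAT Prc1 rose from 2.53, 2.88 and 3.12 to 12.1, 17.2 and 17.4 CPM (log2 2.48 ± 0.37 SE, adjusted p = 0.0189). No library of one diet overlapped the other. Racgap1, a subunit of centralspindlin, rose from 2.28, 3.03 and 2.23 to 20.9, 34.5 and 8.15 CPM in VWAT (log2 3.08 ± 0.39 SE, adjusted p = 0.000849) and 4.79-fold in SWAT (adjusted p = 0.0277). Ect2, the exchange factor that activates RhoA for the contractile ring, rose 6.41-fold and 3.96-fold in VWAT and SWAT. Anln, the ring scaffold anillin, had the highest level and the smallest change of the 4, from 10.1, 10.3 and 9.97 to 44.3, 69.6 and 19.3 CPM in VWAT (log2 2.14 ± 0.33 SE, adjusted p = 0.00162) and from 3.98, 5.61 and 6.28 to 17.3, 20.7 and 18.04 CPM in SWAT (log2 1.85 ± 0.35 SE, adjusted p = 0.0301).

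Top2a and Mki67, which untangle and coat mitotic chromosomes, were, with Smc4, the members with the highest mean CPM on the high-fat diet in VWAT. Top2a, topoisomerase II alpha, rose from 7.31, 10.03 and 7.05 to 74.7, 116 and 29.8 CPM there (log2 3.18 ± 0.39 SE, adjusted p = 0.000793). In SWAT Top2a rose from 3.60, 6.37 and 6.32 to 27.2, 37.4 and 38.4 CPM (log2 2.69 ± 0.40 SE, adjusted p = 0.0189). Mki67, the Ki-67 proliferation marker, rose from 9.46, 10.4 and 5.59 to 60.99, 114 and 32.4 CPM in VWAT (log2 3.03 ± 0.38 SE, adjusted p = 0.000793) and from 3.25, 5.002 and 4.17 to 25.9, 36.5 and 31.4 CPM in SWAT (log2 2.93 ± 0.40 SE, adjusted p = 0.0189). In both genes the VWAT_HFD libraries differed several-fold among themselves, while SWAT_HFD libraries stayed close together.

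Set side by side, the sub-complexes fell in a similar order in the 2 depots. In VWAT the highest medians were those of the outer kinetochore (3.22), the mitotic chromosome pair (3.10) and the corona (3.03), and the lowest were those of anaphase promotion (2.03), the checkpoint (1.90) and condensin (1.48). In SWAT the corona (2.90), the mitotic chromosome pair (2.81) and the outer kinetochore (2.65) were again highest. Anaphase promotion (1.63) and condensin (0.63) were again lowest there, with the inner kinetochore (1.69) next. These medians rest on 2 to 7 listed genes that share the same libraries, so their order is a description and depends on the genes listed. Further genes of the inner and outer kinetochore had lower VWAT medians (0.53 and 1.38). Across the 47 members the VWAT and SWAT changes had a Spearman rho of 0.90 and a Pearson r of 0.93; the points share scaling, and members of 1 complex are not independent.

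**Figure D4:**
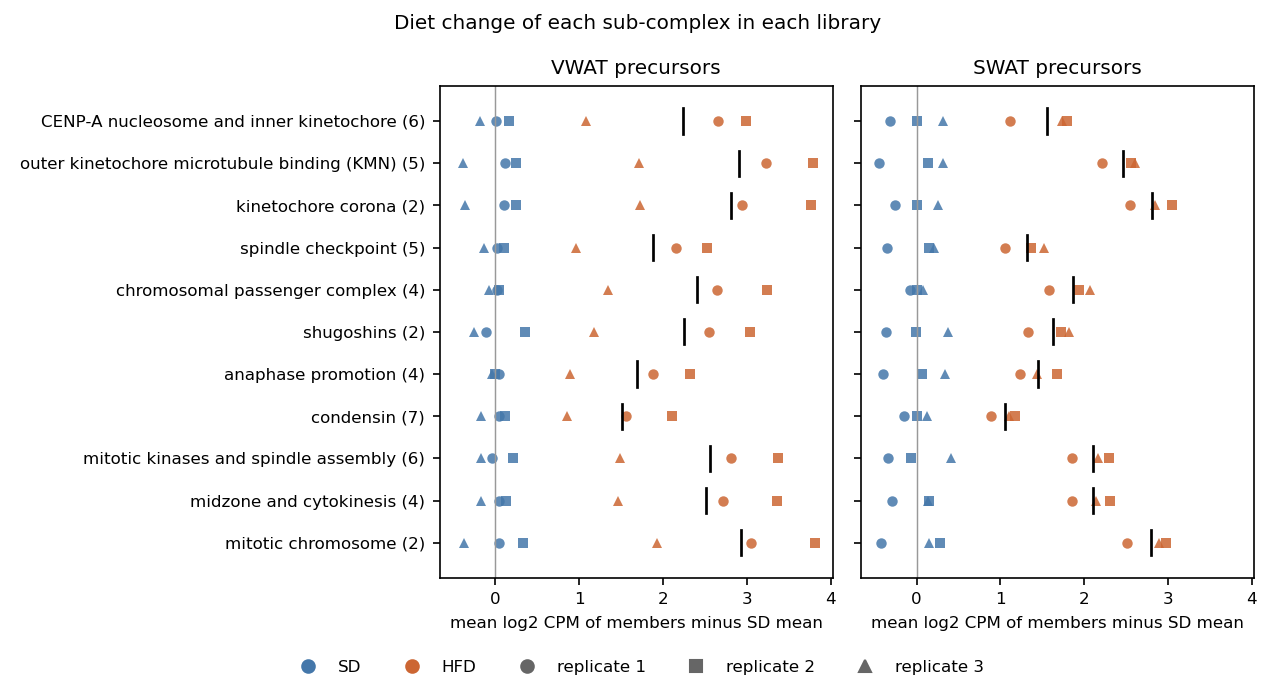
Mean log2 CPM of the members of each sub-complex in each library, minus the mean of the SD libraries of that depot, with the number of genes in brackets and a bar at the HFD mean. VWAT_HFD replicate 3 is the lowest of its group and still right of the SD points in all 11 rows, and condensin has the smallest SWAT shift.

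The replicates of VWAT_HFD were not alike, over all genes as well as over the members. On the second principal component of all genes replicate 3 stood at -2, beside 37 and 46 for replicates 1 and 2 and -32.3 to -24.4 for VWAT_SD. Over all genes 2228 were called in VWAT, 4266 without replicate 3 and 757 without replicate 2. Of the 47 members, 46 were highest in replicate 2 and 46 lowest in replicate 3. The summed level of all members was 239.0, 249.3 and 227.7 CPM in VWAT_SD and 816.5, 1202.0 and 412.1 CPM in VWAT_HFD. In SWAT it was 177.3, 197.7 and 209.9 CPM on the standard diet and 368.2, 474.4 and 456.2 CPM on the high-fat diet. VWAT_HFD replicate 3 thus stood between the VWAT_SD libraries and its own group, within the range of the SWAT_HFD libraries, and it was above all VWAT_SD libraries for 45 members. Without it the median VWAT change was 3.17 and the count of members that rose was again 45. Without VWAT_HFD replicate 2 the median was 2.29 and 44 rose. In SWAT_HFD, 44 members were lowest in replicate 1, the library with the fewest counts.

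For no member did the test show a different diet change in the 2 depots. The fitted change was larger in VWAT for 46 of 47 members, by a median of 0.57, but 0 passed edgeR's interaction test, where 0% of all genes passed. The lowest adjusted p among members was 0.579. An unadjusted p under 0.05 was reached by 5 members and by 1026 of the 14266 genes, and DESeq2 and limma voom also called 0 members. Cenpi had the largest difference (log2 1.49 ± 0.56 SE, adjusted p = 0.585) and Bub1 the next (1.49 ± 0.69, adjusted p = 0.693). Smc4 (0.03 ± 0.23) and Pttg1 (0.03 ± 0.13) had the smallest, and Bub1b was the negative one (-0.14 ± 0.45). The SEs, from 0.13 to 0.83 over members, set what could be seen here. Without VWAT_HFD replicate 3, 4 members passed: Cenpi (1.86, adjusted p = 0.0256), Mad2l1 (1.14, 0.0365), Incenp (1.18, 0.0434) and Cdca8 (1.34, 0.0490). A call in VWAT without one in SWAT, as for 18 members, therefore does not show that the depots differed.

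**Figure D5:**
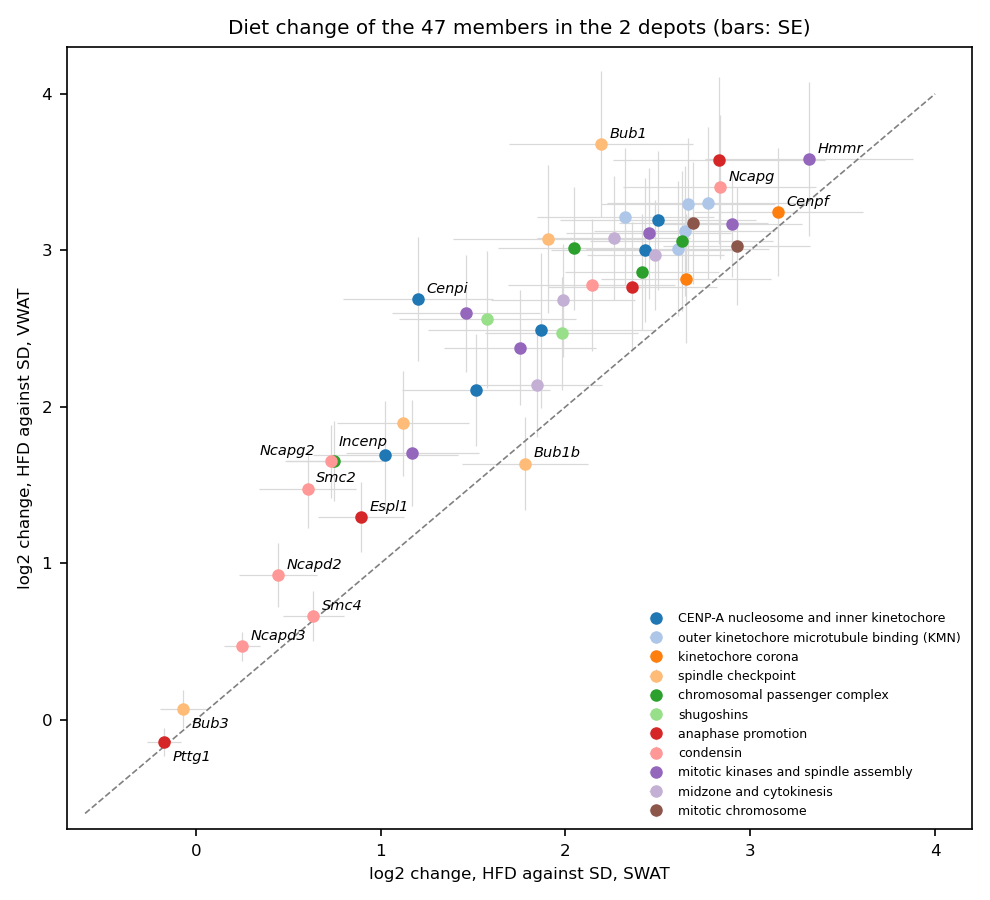
Log2 change from SD to HFD of each member in SWAT (x axis) and VWAT (y axis), with SE bars and colours for the sub-complexes; the dashed line marks equal change. Of the 47 points 46 lie above the line, by a median of 0.57, and Bub1b lies below it.

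Few members were called different between depots on the standard diet. Bub1b (2.88-fold, adjusted p = 0.00383) and Smc4 (1.42-fold, adjusted p = 0.0374) were called higher in VWAT_SD than in SWAT_SD, and 0 lower, where 13.2% of all genes were higher and 12.5% lower. The 3 VWAT_SD libraries lay above all SWAT_SD libraries for 15 members, beside 23.6% of all genes. The median difference was 0.46, beside 0.018 over all genes, and the fitted difference was positive for 40 of the 47 members. The count was 1 without VWAT_SD replicate 1 or 2, without any SWAT_SD replicate or without SWAT_HFD replicate 2. It was 4 without VWAT_HFD replicate 2 and 7 without VWAT_HFD replicate 3. Bub1b passed in all 12 omissions of 1 library and Smc4 in all but 7.

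On the high-fat diet 32 members were called higher in VWAT than in SWAT and 0 lower, where 13.4% of all genes were called in each direction. The median difference was 1.09, beside 0.017 over all genes. The libraries of the 2 depots did not overlap for only 3 members, Bub1b, Ncapg2 and Ncapd3, beside 17.7% of all genes. For the other 44 members VWAT_HFD replicate 3 lay below the highest SWAT_HFD library. The count followed the VWAT_HFD replicates: it was 8 without replicate 1, 1 without replicate 2 and 46 without replicate 3. It was 3, 6 and 9 without SWAT_HFD replicates 1, 2 and 3, 18 to 25 without 1 of the VWAT_SD replicates and 19 to 26 without 1 of the SWAT_SD replicates. Limma voom called 4. Bub1b read 15.9, 20.8 and 7.27 CPM in VWAT_HFD against 5.22, 6.10 and 5.47 CPM in SWAT_HFD, 2.61-fold higher (adjusted p = 0.00397). The comparisons share libraries with the diet comparisons and are no independent evidence of them.

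Members with a higher level on the standard diet tended to have smaller changes. Per kilobase of exon (union of exons in GENCODE M21), the highest levels in SWAT_SD were those of Pttg1 (10.1 CPM per kb), Smc4 (6.01), Bub3 (5.15), Ncapd2 (2.24) and Smc2 (2.01), and the remaining 42 members were below 2, a limit set after these levels were seen. The largest VWAT change among those 5 was 1.48, and the smallest among the other 42 was 0.47 (Ncapd3), so the sets overlapped. The level per kilobase in SWAT_SD and the change in VWAT, which come from separate libraries, had a Spearman rho of -0.64 over the 47 members. That between the level in VWAT_SD and the change in SWAT was -0.52. Gene and length models are shared by both axes, and the exon lengths come from a later annotation than the one counted.

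Other genes of the same processes, no members, differed in their changes, also within a list. In VWAT the log2 changes ran from -0.02 to 2.85 over further inner and from -0.13 to 3.21 over further outer kinetochore genes. Of 14 further inner kinetochore genes 6 rose in VWAT and 1 in SWAT (medians 0.53 and 0.22). Of 13 further outer kinetochore genes 8 rose in VWAT and 1 in SWAT, with the lowest adjusted p in Kntc1, the Rod subunit of the complex that brings dynein to kinetochores. Kntc1 rose from 0.847 ± 0.137 to 7.24 ± 4.004 CPM in VWAT (adjusted p = 0.000644). All 12 mitotic kinesins rose in VWAT and 10 in SWAT (medians 2.86 and 2.16), among them Kif23, the motor of centralspindlin and partner of Racgap1 (log2 3.47 ± 0.43 SE in VWAT, adjusted p = 0.000793).

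By contrast, most genes listed for the core of the anaphase promoting complex and for cohesin changed little. Of 16 genes of the complex and its enzymes 1 rose in VWAT, the ubiquitin-conjugating enzyme Ube2s (log2 0.53 ± 0.14 SE, adjusted p = 0.0221), and 0 passed in SWAT, with medians of 0.12 and 0.08. Of 13 cohesin genes 2 rose in VWAT, Esco2, the acetyltransferase that makes cohesin cohesive (2.99 ± 0.43, adjusted p = 0.00127), and Cdca5, or sororin (3.03 ± 0.50, adjusted p = 0.00213). Esco2 alone of these rose in SWAT (2.79 ± 0.49, adjusted p = 0.0245), and the cohesin medians were 0.01 and 0.04. Of the 6 genes of the replicative helicase, MCM2 to MCM7, 4 rose in VWAT and 0 in SWAT (medians 0.60 and 0.04). Mcm2 was at 4.36 ± 0.276 CPM in VWAT_SD and 11.5 ± 4.43 CPM in VWAT_HFD (SD, n = 3; adjusted p = 0.00187), and at 5.31 ± 0.6 and 6.59 ± 1.18 CPM in SWAT (adjusted p = 0.541).

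Markers of other cell types were read in the same libraries. Of 8 leukocyte markers tested 1 fell in VWAT, Cd14 (log2 -0.87 ± 0.16 SE, adjusted p = 0.00339), and 0 passed in SWAT. Their summed level was 11.24, 17.62 and 17.57 CPM in VWAT_SD and 10.68, 9.55 and 7.68 CPM in VWAT_HFD. In SWAT it was 12.21, 13.62 and 15.12 CPM on the standard diet and 13.44, 44.4 and 16.54 CPM on the high-fat diet, and the T cell marker Cd3e was at 0 in at least 1 library. SWAT_HFD replicate 2 thus had the highest leukocyte sum. Without it the median member change in SWAT was 2.0, beside 2.05 with it, and 0 members were called, beside 27. None of the 8 endothelial markers passed in either depot, with medians of 0.23 in VWAT and 1.0 in SWAT. Most of their sum, between 187.01 and 316.92 CPM, was Tek. The other 7 summed to 25.9, 27.95 and 12.31 CPM in VWAT_SD and 38.9, 25.58 and 5.72 CPM in VWAT_HFD. In SWAT they summed to 14.66, 14.31 and 5.73 CPM on the standard diet and 14.38, 35.09 and 21.68 CPM on the high-fat diet. Their SWAT log2 changes lay between 0.71 and 1.20, so they and the leukocyte markers (SWAT median 1.25) were on average higher on the high-fat diet there. For both sums SWAT_HFD replicate 1, the library with the fewest counts, lay within the SWAT_SD range of the same sum. SWAT_HFD replicates 2 and 3 lay above it. VWAT_HFD replicate 3 was the lowest of its group for the endothelial sum as for the members. The 6 mesothelial markers summed to 103.41 to 131.05 CPM in VWAT and 2.41 to 4.83 CPM in SWAT, with 0 passing the diet tests. Of 7 mural markers 2 rose and 1 fell in VWAT. These markers summed to 37.36, 35.42 and 34.61 CPM in VWAT_SD and 51.74, 59.01 and 34.16 CPM in VWAT_HFD. Within VWAT_HFD the mural sum was highest in replicate 2 and lowest in replicate 3, as was the members' sum. In SWAT the mural sum was 123.31, 117.07 and 100.55 CPM on the standard diet and 102.52, 102.39 and 65.02 CPM on the high-fat diet. Of the 8 sort and mesenchymal markers, Thy1 and Itgb1 rose in VWAT (log2 1.32 ± 0.23 SE and 0.36 ± 0.10 SE). The part of these cells in the members' changes was not tested. Counts of 8 members are uncertain, since they overlap another protein-coding gene in RefSeq and no source used here says whether reads were assigned by strand: Cenpk, Cenpn, Cdc20, Ncapg, Aurka, Nusap1, Prc1 and Anln.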

How the data were processed

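Messenger RNA libraries, 12 in number, were read as 75-base single ends from strand-marked (dUTP) preparations, per the labels' protocols. A single table of raw, unnormalised counts per gene was deposited by the authors. Reads were aligned with TopHat and counted with HTSeq on mm9, per the submitters' processing notes. Their versions are not given in the sources used here, nor is the strand setting. The 3 entries that name no gene (reads in no feature 3.53 to 5.57%, ambiguous 1.71 to 1.95%, not unique 14.98 to 20.81%) were left out. No mm9 annotation was used, so no coordinates are given for the counts.

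filterByExpr by group kept 14266 of 14398 genes and removed 132. For each comparison the quasi-likelihood F test of edgeR was used (4.0.16, R 4.3.3, robust, TMM factors 0.825 to 1.139) in 1 fit of 4 groups, with Benjamini-Hochberg adjusted p under 0.05 as the threshold and 5 comparisons: diet in each depot, their difference (interaction), and depot on each diet. The procedure was tested on simulated data. A fit with limma (3.58.1) voom, DESeq2 (1.42.0), other scalings, no filter, only the libraries compared, a replicate block and each library left out in turn were alternatives. Libraries of a group differed by more than sampling noise, so none was counted as a duplicate. An exact permutation test of 3 against 3 libraries cannot go below 0.1, so none was used.

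The replicate numbers recur in all groups. Deviations of same-numbered libraries from their group means, over the 2000 most variable genes, correlated at 0.13, 0.13 and 0.31 between diets in VWAT, so the numbers were taken to pair those libraries, as a property of the data and not of the labels. In the other comparisons these correlations ran from -0.05 to 0.24, and in each some library correlated best with one of another number. The numbers were not taken to pair libraries there. Correlations this low, in 3 libraries per group, do not settle whether libraries were paired. The main fit held no term for pairing, and the counts with the replicate block are given below.

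The members, sub-complexes and other gene lists were chosen with earlier results of these data known. Full values are given, per sub-complex, for the 2 members with the lowest adjusted p in VWAT and the one with the smallest change, for members that passed in neither depot, and for the 2 largest and 2 smallest depot differences; of other lists, for up to 3 genes with the lowest adjusted p. Further members were given values after these were seen. A gene that met this rule is not reported here. Promoter sequences are from RefSeq.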

Additional observations from a re-analysis of the deposited data

How the results depend on the processing

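In VWAT the number of members that rose was 45 with DESeq2 size factors, library size alone, no filter, DESeq2's Wald test, limma voom and the replicate block, 44 with only the VWAT libraries, and 44 to 45 with 1 library left out. Library size alone moved the median of all genes to -0.126 in VWAT and -0.176 in SWAT, and to 0.236 and 0.301 between depots on SD and HFD; the members' medians were then 2.65, 1.88, 0.67 and 1.35. In SWAT limma voom called 1 member, DESeq2 37, a fit of the SWAT libraries alone 40 of 46 tested, and omissions of 1 library 0 to 41. The interaction gave 0 to 4 members over the omissions and 0 elsewhere. Between depots on SD the count was 5 with library size alone, 8 with only the libraries compared and 1 to 7 over omissions. On HFD it was 4 with limma voom, 2 with only the libraries compared, 47 with library size alone, and 1 to 46 over omissions. With replicate number as a block, the counts were 45 in VWAT, 29 in SWAT, 0 for the interaction, 4 between depots on SD and 19 on HFD. The block was applied to all libraries, although the numbers were taken to pair libraries only between diets in VWAT. In VWAT the replicate block changed no call. Bub3, which passed nowhere, changed sign in VWAT with library size alone (log2 -0.05) and in SWAT without SWAT_SD replicate 3 (0.02) or SWAT_HFD replicate 1 (0.03), within -0.17 to 0.03 over the omissions there. Of the named genes' other values, Smc4 alone lost its VWAT call, in 5 settings, while in SWAT a call was lost in 140 and gained in 24 pairs of gene and setting, with the direction kept. The cause was not tested. Where a left-out library leaves 2 in its group, the spread is shared over all groups. The low counts of Cenph and the 3 libraries per group limit what SWAT and the interaction can show.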
